A study of Mus musculus with 2 samples.

Results

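Integrins that hold lymphocytes in tissue, the early residency marker Cd69, transforming growth factor beta (TGF-beta) with its receptors and the transcription factor Runx3 were described in leukocytes sorted from mouse melanomas. The set was chosen by gene symbol and listed 10 genes, of which 9 had a row among the 32285 genes of each library: Itgae, Itga1, Itga2, Itgb1, Cd69, Tgfb1, Tgfbr1, Tgfbr2 and Runx3. No row carried the symbol Cd244a2. The gene Cd244a, whose symbol is close to it, is described separately and is not counted as a member.

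The tumors grew from B16-F10, a mouse melanoma cell line, in mice labelled as WT in genotype. Mice received DOPAC (3,4-dihydroxyphenylacetic acid), to which the body breaks down dopamine, in the treated group and vehicle in the group labelled Control. CD45-positive cells, the leukocytes of the tumor, were sorted and sequenced in droplets, with 4 mice per group but 1 library per group and nothing that assigns a cell to a mouse. Tissue labels and design text name tumors, whereas the labels' protocol speaks of colon tissue; the age, strain and dose of the mice are not given in the sources used here.

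Integrins are pairs of an alpha and a beta chain that bind other cells or the matrix. Itgae encodes CD103, which pairs with the beta chain of Itgb7 and binds E-cadherin (Cdh1) on epithelium. Itga1 and Itga2 encode CD49a and CD49b, the alpha chains of collagen receptors that share the beta chain of Itgb1. CD103 is known from tissue-resident memory T cells, from regulatory T cells and from type 1 dendritic cells. In mice CD49b marks circulating natural killer (NK) cells, and CD49a marks tissue-resident innate lymphoid cells. TGF-beta is bound by the receptor kinase of Tgfbr2, which then recruits that of Tgfbr1. The signal passes through SMAD proteins, and it is known to raise CD103 in CD8 T cells. Runx3 is needed for the CD8 T lineage and takes part in CD103 expression, and CD69 holds cells in tissue by removing the egress receptor S1PR1 from the surface.

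Itga1 and Itga2 are neighbours on the minus strand of chromosome 13 in GRCm38, at chr13:114953096-115101964 and chr13:114833081-114932100. Only 20995 bases lie between them. The 250 bases before their RefSeq starts (build GRCm38.p6, minus strand) are shown. The reason is that the 2 genes differed in opposite directions between the libraries in the NK gate. The bases before the upstream of the 2 Runx3 starts (plus strand) are shown because Runx3 led in NK and, in DOPAC, CD8 T cells. Capitals mark matches to the RUNX motif TGTGGT or its reverse ACCACA.
Itga1 chr13:115101965-115102214: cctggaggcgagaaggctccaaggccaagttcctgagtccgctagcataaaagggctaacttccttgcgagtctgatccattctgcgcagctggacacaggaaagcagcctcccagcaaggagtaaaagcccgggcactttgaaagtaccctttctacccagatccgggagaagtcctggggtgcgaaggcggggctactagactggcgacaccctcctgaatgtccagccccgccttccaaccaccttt
Itga2 chr13:114932101-114932350: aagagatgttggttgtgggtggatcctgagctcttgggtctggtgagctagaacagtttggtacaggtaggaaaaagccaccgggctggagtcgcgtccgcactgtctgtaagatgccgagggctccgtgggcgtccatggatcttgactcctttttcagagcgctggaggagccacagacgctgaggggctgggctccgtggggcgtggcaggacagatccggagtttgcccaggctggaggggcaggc
Runx3 chr4:135120395-135120644: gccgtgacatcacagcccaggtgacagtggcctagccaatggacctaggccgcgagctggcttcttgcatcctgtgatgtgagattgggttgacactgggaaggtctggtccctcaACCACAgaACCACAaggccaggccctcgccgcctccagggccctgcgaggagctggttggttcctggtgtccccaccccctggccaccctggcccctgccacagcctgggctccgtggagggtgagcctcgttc
The Runx3 window held 2 RUNX matches, whose first bases lay 134 and 126 bases before the start, and the windows of Itga1 and Itga2 held none, as did the 250 bases before the downstream Runx3 start. Of 32851 windows of the same length and both strands, 14.0% held at least 1 such match. The Itga2 window held 1 match to the SMAD motif CAGACA (17.1% of all windows hold it on either strand), and the Itga1 window held 1 match to the ETS motif AGGAAG (29.5%). A match describes the letters and is not evidence of binding.

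Cells were gated by the unique molecular identifiers (UMIs, each a counted transcript) of a few marker genes, none of them a member. The CD8 T gate held 3486 DOPAC and 686 Control cells, and the NK gate 271 DOPAC and 638 Control cells. The type 1 dendritic gate (Xcr1 and Clec9a) held 108 DOPAC and 209 Control cells. Smaller in the DOPAC library were regulatory T cells with 71 DOPAC and 95 Control cells, and type 2 dendritic cells (Cd209a) with 63 DOPAC and 237 Control cells. The same held for mature dendritic cells (Ccr7 with Fscn1 or Ccl22), with 97 DOPAC and 250 Control cells, and for plasmacytoid dendritic cells (Siglech), with 44 DOPAC and 255 Control cells. A class was compared between the libraries by ratio only where both held at least 100 of its cells; ratios under an alternative that left fewer are given with their cell numbers. Marker genes not used by the gates were checked against their median over the 7 classes: at least 3 times that median was reached in both libraries by 5 of 5 CD8 T and 5 of 5 regulatory T markers. It was reached by 3 of 6 NK, 3 of 5 type 1, 4 of 5 mature and 5 of 6 plasmacytoid markers. In type 2 dendritic cells it was reached by 1 of 5 (Cd300a), so that class is known by its gate alone. That gate asked for Cd209a and for a minimum of UMIs over Cd209a, Clec10a and Mgl2.

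The DOPAC library was shallower, with a median of 3592 UMIs in 9280 kept cells, against 9320 UMIs in 8105 Control cells. The libraries shared 32 barcode sequences (0.297% of the DOPAC and 0.332% of the Control barcodes). Summed haemoglobin RNA in the 7 classes spanned 0 to 2.31 CPM (UMIs scaled to 1000000 UMIs of a class) in DOPAC and 28.5 to 1094 CPM in Control, where CD8 T cells were highest. In CD8 T cells all 4 haemoglobin genes had UMIs in both libraries, at a sum of 1.12 CPM in DOPAC and 1094 CPM in Control. Genes of melanoma cells (Pmel, Mlana, Dct and Tyrp1) summed to 0 to 7.37 CPM in DOPAC and 6.78 to 56.1 CPM in Control over the 7 classes, and to 20 CPM in DOPAC and 473 CPM in Control macrophages. Platelet genes summed to 0 to 11.9 CPM in DOPAC and 24.5 to 107 CPM in Control, with NK cells highest in Control (1.90 CPM in DOPAC). Among the 3 neutrophil genes the sums were 0 to 7.56 CPM in DOPAC and 7.79 to 26.1 CPM in Control. The part of these marker lists in the results was not tested. The fibroblast genes Col1a1, Col3a1 and Dcn were at or near 0 in every class, with sums of at most 0.304 CPM in DOPAC and 0.377 CPM in Control. Each group is 1 library, so no difference has a replicate check, no test was possible and all intervals are 95% intervals of counting error alone.

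Between the libraries, the members split by class. In CD8 T cells 5 of 9 members were at least 1.5-fold apart, 2 higher in DOPAC (Tgfb1 and Runx3) and 3 lower (Itgae, Cd69 and Tgfbr2). Of the 12686 genes with at least 20 UMIs in that class, 41.1% were as far apart, 17.6% higher and 23.4% lower. In NK cells 1 of 8 members was higher (Itga1) and 1 lower (Itga2), where 33.3% of all genes were that far apart (13.6% higher and 19.7% lower). In type 1 dendritic cells 2 of 8 were higher (Cd69 and Tgfbr1) and 1 was lower (Itgae), against 32.9% of all genes (18.9% higher and 14.0% lower). The members' share apart was thus near that of all genes in each of the 3 classes. The median log2 ratio of the tested members was -0.21 in CD8 T, -0.32 in NK and 0.03 in type 1 dendritic cells, beside -0.07, -0.07 and 0.07 over all tested genes.

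**Figure D1:**
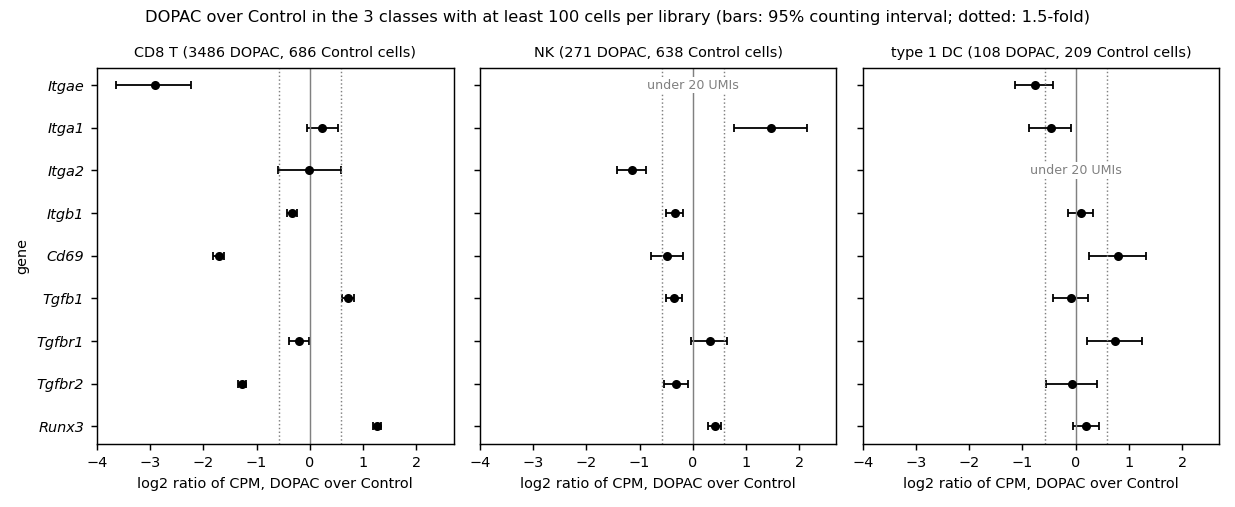
Log2 ratio of CPM, DOPAC over Control, for each gene in CD8 T, NK and type 1 dendritic (DC) cells. Points are ratios of summed UMIs, bars their 95% counting intervals and dotted lines 1.5-fold; Runx3 and Tgfb1 lie to the right and Itgae, Cd69 and Tgfbr2 to the left in CD8 T cells, and Itga1 and Itga2 lie on opposite sides in NK cells.

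Itgae (chr11:73090583-73147446 on GRCm38, plus strand) was a type 1 dendritic transcript in both libraries. Type 1 dendritic cells had 86.8 CPM (68.3 to 109; 75 UMIs) in DOPAC, against 148 CPM (137 to 161; 602 UMIs) in Control, the highest level of the 7 classes and apart from the next. They made up 1.16% of the DOPAC and 2.58% of the Control cells and held 37.5% of all Itgae UMIs in DOPAC and 38.1% in Control. Cells of no single gate held 45.5% of these UMIs in DOPAC and 39.3% in Control. Regulatory T cells came next by level, with 14.7 CPM (4.01 to 37.7) from 4 UMIs in DOPAC and 57.1 CPM (44.5 to 72.1) from 70 UMIs in Control. Mature dendritic cells had 4.20 CPM in DOPAC and 19.8 CPM in Control. Each Control value lay above its DOPAC value. By level, with both libraries considered, regulatory T cells overlapped with mature dendritic cells and lay above CD8 T, type 2 dendritic, NK and plasmacytoid cells. By counting interval, regulatory T cells overlapped with mature, type 2 and plasmacytoid dendritic cells in DOPAC and with none of them in Control.

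CD8 T cells, the class in which CD103 is best known as a residency integrin, carried little Itgae. They had 1.32 CPM (0.861 to 1.93) from 26 UMIs in DOPAC and 9.95 CPM (7.55 to 12.9) from 58 UMIs in Control. Most of these Control UMIs, 51 of 58, lay in naive-gene cells, a subset described below with Cd69. That subset had 1.02 CPM from 2 UMIs in DOPAC and 10.2 CPM (7.57 to 13.4) in Control. Checkpoint cells had 1.265 CPM from 16 UMIs in DOPAC and 3.76 CPM (0.456 to 13.6) from 2 UMIs in Control. Cells in neither subset had 1.57 CPM from 8 UMIs in DOPAC and 17.6 CPM (5.70 to 41.0) from 5 UMIs in Control. C1q-positive macrophages, used as a background for free RNA, had 0.889 CPM in DOPAC and 5.42 CPM in Control. CD8 T cells were thus 1.48-fold (0.371 to 12.9) above macrophages in DOPAC and 1.84-fold (1.32 to 2.54) above them in Control. Type 1 dendritic cells were 97.6-fold (26.1 to 821) above macrophages in DOPAC and 27.4-fold (22.4 to 33.7) in Control. Brought to 1000 UMIs per cell, 0.129% of DOPAC CD8 T cells (0.0383 to 0.315) had an Itgae UMI, beside 0.0608% of DOPAC macrophages. In Control the shares were 1.11% of CD8 T cells (0.469 to 2.21), 0.382% of macrophages (0.117 to 0.919) and 0.186% of B cells. Without thinning, 0.717% of DOPAC and 7.0% of Control CD8 T cells had an Itgae UMI. Of Control macrophages 3.72% and of Control B cells 0.962% had one, also without thinning. DOPAC macrophages held only 2 Itgae UMIs, so the CD8 T level there could not be told from background or from a level above it. The Control level was low but lay above macrophages by its ratio interval, although the intervals of the thinned shares overlapped. The median depth of macrophages was 5236.5 UMIs in DOPAC and 15581 in Control, that of CD8 T cells 4713 in DOPAC and 7504 in Control, and that of Control B cells 4309.5.

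The DOPAC level of Itgae was 0.133-fold of Control (0.0801 to 0.214) in CD8 T cells and 0.585-fold (0.454 to 0.745) in type 1 dendritic cells. In macrophages it was 0.164-fold (0.0196 to 0.606). At 1000 UMIs per cell 6.27% of type 1 dendritic cells in DOPAC (2.51 to 12.6) and 12.6% in Control (8.46 to 17.9) had an Itgae UMI; unthinned, 34.3% in DOPAC and 71.8% in Control did. NK, type 2 dendritic and plasmacytoid dendritic cells had no Itgae UMI in DOPAC and 1.13 to 3.69 CPM in Control, which is below the macrophage level there. The gene's partner Itgb7 was also lower: 17.5 CPM in DOPAC and 66.7 CPM in Control CD8 T cells, 35.2 CPM in DOPAC and 70.7 CPM in Control NK cells, and 55.5 CPM in DOPAC and 145 CPM in Control type 1 dendritic cells. In macrophages Itgb7 had 56.5 CPM in DOPAC and 44.4 CPM in Control. Cdh1, the ligand gene of CD103, was highest in plasmacytoid dendritic cells at 76.8 CPM in DOPAC and 76.5 CPM in Control, and had 1.67 CPM in DOPAC and 5.32 CPM in Control CD8 T cells.

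Itga1, the CD49a chain, was likewise highest in type 1 dendritic cells, which had 70.6 CPM (54.0 to 90.7) in DOPAC, against 97.8 CPM (88.4 to 108) in Control. CD8 T cells had 25.1 CPM (22.9 to 27.4) in DOPAC, against 21.3 CPM (17.7 to 25.4) in Control. The 2 CD8 T levels lay within 1.5-fold of each other, at 1.18-fold (0.966 to 1.45), but the subsets of the class, described below with Cd69, did not all share that direction. Naive-gene cells had 26.0 CPM (19.4 to 34.2) in DOPAC, against 17.6 CPM (14.1 to 21.6) in Control. Checkpoint cells had 22.8 CPM (20.3 to 25.6) in DOPAC, against 30.1 CPM (17.2 to 48.9) in 46 Control cells, and cells in neither subset 30.1 CPM (25.6 to 35.3) in DOPAC, against 70.3 CPM (42.9 to 108) in 42 Control cells. Without naive-gene cells (88 Control cells left) the log2 ratio of Itga1 was -0.86, against 0.23 in all CD8 T cells. NK cells had 31.4 CPM (21.6 to 44.1) from 33 UMIs in DOPAC and 11.3 CPM (8.34 to 15.1) from 47 UMIs in Control, a ratio of 2.77-fold (1.72 to 4.41). Plasmacytoid cells had no Itga1 UMI in DOPAC and 1.88 CPM in Control. Macrophages had 16.4 CPM in DOPAC and 13.5 CPM in Control, so Control NK cells were not above them (0.842-fold, 0.605 to 1.15), whereas DOPAC NK cells were (1.91-fold, 1.16 to 3.14). At 1000 UMIs per cell, 2.04% of DOPAC and 1.04% of Control NK cells had an Itga1 UMI, with overlapping intervals (0.708 to 4.53 in DOPAC and 0.408 to 2.17 in Control); unthinned, 7.75% in DOPAC and 5.80% in Control did. Macrophages had 1.75% in DOPAC and 1.25% in Control, so neither NK share stood above theirs. Macrophages are not a floor of free RNA for this gene. Control B cells had 2.05 CPM (0.750 to 4.45), below both NK cells and macrophages of that library. The gene Pelo lies inside Itga1 on the same strand, and reads in their overlap may be assigned to either gene or to none.

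Most Itga1 UMIs of the DOPAC NK cells, 23 of 33, lay in a small subset. Among NK cells with at least 1 UMI of Gzmc, Gzmf or Cxcr6 (2 granzymes and a chemokine receptor of tissue-resident lymphocytes), Itga1 was at 79.8 CPM (50.6 to 120) in 46 DOPAC cells and 17.7 CPM (7.10 to 36.4) in 47 Control cells. Most UMIs of the 3 genes were of Gzmc, with 844 in DOPAC and 686 in Control. Gzmf had 17 in DOPAC and 30 in Control, and Cxcr6 only 7 in DOPAC and 15 in Control. NK cells with none of these UMIs had 13.1 CPM (6.29 to 24.1) in DOPAC, against 10.7 CPM (7.63 to 14.5) in Control. Within the DOPAC library the positive subset was 6.09-fold (2.79 to 14.3) above the negative one, and within Control 1.65-fold (0.625 to 3.73). The positive cells made up 17% of NK cells in DOPAC (12.7 to 22.0) and 7.37% in Control (5.46 to 9.68), and they were the deeper cells in both libraries (medians of 6321 against 2886 UMIs in DOPAC and 7303 against 5855 in Control). The call depends on the gate. A wider NK gate that also accepted Klre1 and Eomes, chosen after the data were seen, held 787 DOPAC and 766 Control cells. Unlike the main NK gate, it allowed no UMI of Cd8a, Cd8b1 or Trac. In it Itga1 was at 15.9 CPM in DOPAC and 11.5 CPM in Control, 1.37-fold apart (0.891 to 2.10).

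Itga2, the CD49b chain, was an NK transcript in both libraries. NK cells had 124 CPM (103 to 147; 130 UMIs) in DOPAC, against 274 CPM (258 to 290; 1135 UMIs) in Control, apart from every other class. Regulatory T cells had 18.4 CPM (5.98 to 43.0) in DOPAC, against 9.78 CPM (5.05 to 17.1) in Control, and CD8 T cells 5.58 CPM in DOPAC and 5.66 CPM in Control. The dendritic classes had at most 2.31 CPM in DOPAC and 4.45 CPM in Control, and macrophages 0.889 CPM in DOPAC and 1.76 CPM in Control. The DOPAC level in NK cells was 0.451-fold of Control (0.373 to 0.542). The wider gate gave 139 CPM in DOPAC and 269 CPM in Control, 0.516-fold (0.457 to 0.581). When the gates were set on cells thinned to 1000 UMIs, 74 DOPAC and 118 Control NK cells remained and the log2 ratio of Itga2 was -0.35, no longer past 1.5-fold. At 1000 UMIs per cell, 12.9% of DOPAC NK cells (9.11 to 17.5) and 21.2% of Control NK cells (18.1 to 24.6) had an Itga2 UMI, against at most 0.193% of macrophages in either library. Unthinned, the NK shares were 27.7% in DOPAC and 57.8% in Control.

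Itga2 ran opposite to Itga1 across the NK subsets of the DOPAC library; in Control the Itga1 contrast, from 7 UMIs in positive cells, showed no direction beyond its interval. Positive NK cells had 55.5 CPM (31.7 to 90.2) in DOPAC, against 156 CPM (120 to 201) in Control, and negative NK cells 149 CPM (123 to 180) in DOPAC, against 286 CPM (270 to 304) in Control. Itga2 was thus lower in the positive than in the negative subset in each library, at 0.372-fold (0.205 to 0.630) in DOPAC and 0.546-fold (0.416 to 0.706) in Control, and lower in DOPAC within each subset. Of the 46 positive DOPAC cells, 12 had an Itga1 and 7 an Itga2 UMI and 0 had both, where the product of the shares gives 1.83 cells. Of the 47 positive Control cells, 5 and 18 had these UMIs and again 0 had both, beside a product of 1.91 cells. In the negative subset 4 of 225 DOPAC and 20 of 591 Control cells had both, beside products of 2.72 cells in DOPAC and 19.0 in Control. Most Itga2 UMIs of the DOPAC library (72.5% of 909) lay in cells of no single gate, against 35.9% of 1946 in Control.

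Itgb1 (chr8:128685654-128733200, plus strand), the shared beta chain, was found in every class. NK cells led with 378 CPM (342 to 417) in DOPAC, against 477 CPM (456 to 499) in Control, apart from mature dendritic cells at 357 CPM in DOPAC and 250 CPM in Control. CD8 T cells had 169 CPM in DOPAC and 213 CPM in Control, type 1 dendritic cells 227 CPM in DOPAC and 213 CPM in Control, and regulatory T cells were lowest at 92.1 CPM in DOPAC and 155 CPM in Control. The ratio stayed within 1.5-fold in the 3 classes compared, at 0.795-fold (0.744 to 0.849) in CD8 T, 0.792-fold (0.709 to 0.882) in NK and 1.07-fold (0.909 to 1.25) in type 1 dendritic cells. Within CD8 T cells with checkpoint receptors, Itgb1 had 150 CPM (144 to 157) in 1882 DOPAC cells and 265 CPM (223 to 313) in 46 Control cells.

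**Figure D2:**
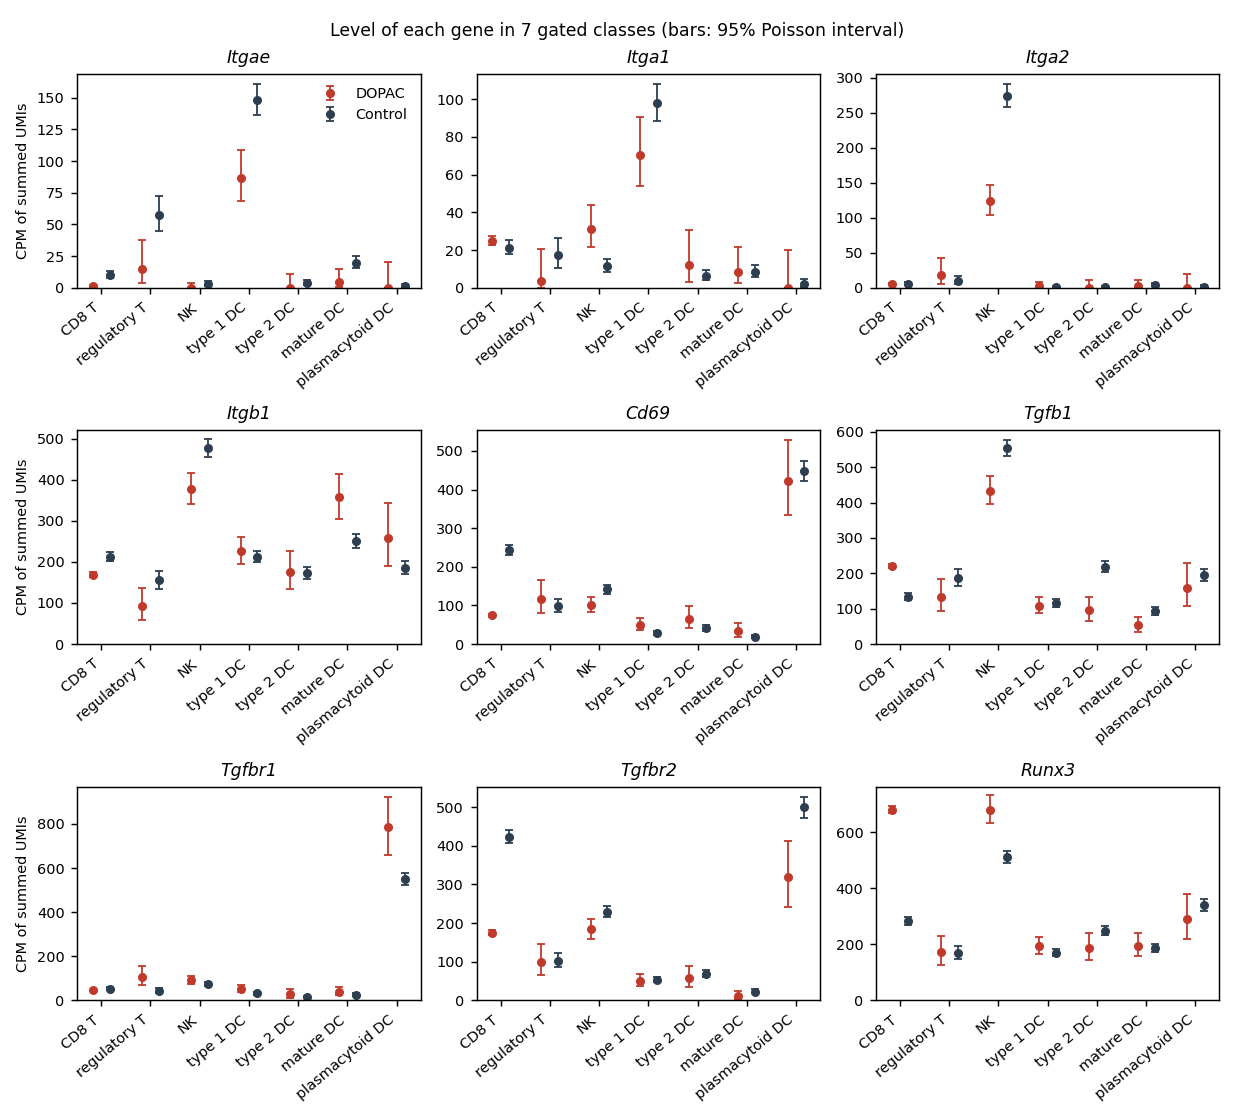
CPM of the summed UMIs of each gene in 7 gated classes, DOPAC in red and Control in dark blue, with 95% Poisson intervals. Itgae and Itga1 peak in type 1 dendritic (DC) cells, Itga2, Itgb1 and Tgfb1 in NK cells, and Cd69 and Tgfbr1 in plasmacytoid DC; Runx3 is highest in NK cells and, in DOPAC, also in CD8 T cells.

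Cd69 (chr6:129267325-129275436, minus strand), an early activation and residency marker, showed its highest level in plasmacytoid dendritic cells, with 422 CPM (333 to 528) in DOPAC, against 447 CPM (422 to 474) in Control. Of the 3 classes compared between libraries, CD8 T cells lay farthest apart, with 74.3 CPM (70.5 to 78.2; 1465 UMIs) in DOPAC, against 243 CPM (231 to 256; 1418 UMIs) in Control. That is 0.305-fold (0.284 to 0.329). Thinned to 1000 UMIs, CD8 T cells had a Cd69 UMI in 7.51% of cells in DOPAC (6.66 to 8.44), against 20.5% in Control (17.5 to 23.7); unthinned, 25.9% in DOPAC and 68.4% in Control did. Control B cells had 21.2%, no lower than Control CD8 T cells, and macrophages 5.28% in DOPAC and 2.90% in Control. NK cells had 102 CPM (83.4 to 123) in DOPAC, against 142 CPM (130 to 154) in Control. Type 1 dendritic cells were on the other side, with 49.8 CPM (36.0 to 67.0; 43 UMIs) in DOPAC, against 28.6 CPM (23.6 to 34.3; 116 UMIs) in Control, 1.74-fold (1.20 to 2.49). Thinned shares of type 1 dendritic cells with a Cd69 UMI stood at 4.76% in DOPAC (1.6 to 10.7), against 2.62% in Control (0.909 to 5.80), and unthinned ones 23.1% in DOPAC and 22.5% in Control. Macrophages had 53.3 CPM in DOPAC and 29.2 CPM in Control, a ratio of 1.83-fold (1.49 to 2.23). Type 2 dendritic cells had 65.4 CPM (41.0 to 99) in DOPAC, against 41.5 CPM (35.0 to 48.8) in Control.

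The makeup of the CD8 T class differed between the libraries, and 3 subsets were therefore described. Cells with at least 2 UMIs of a set of naive-cell genes, among them Lef1, Tcf7, S1pr1 and Ccr7, and more of these than of checkpoint UMIs, made up 9.55% of the DOPAC and 87.2% of the Control CD8 T cells. Cells gated likewise on the checkpoint receptors Pdcd1, Havcr2, Lag3 and Tigit made up 54.0% in DOPAC and 6.71% in Control. Naive-gene cells were themselves unlike: Lef1 stood at 260 CPM in DOPAC and 872 CPM in Control, and Havcr2 at 59.6 CPM in DOPAC and 11.4 CPM in Control. Markers of other cells differed by subset too. Haemoglobin genes summed to 1.53 CPM in DOPAC and 1266 CPM in Control naive-gene cells, to 0.948 CPM in DOPAC and 39.5 CPM in Control checkpoint cells, and to 1.37 CPM in DOPAC and 31.6 CPM in Control cells of neither subset. Melanoma genes summed to 11.7 CPM in DOPAC and 11.6 CPM in Control naive-gene cells, to 4.98 CPM in DOPAC and 444 CPM in Control checkpoint cells, and to 10.4 CPM in DOPAC and 116 CPM in Control cells of neither subset. Their part in the subset values was not tested. In naive-gene cells 5 of 9 members were at least 1.5-fold apart, beside 35.2% of all genes there: Itgae, Cd69 and Tgfbr2 lower (16.6% of all genes), and Itga2 and Runx3 higher (18.6%).

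Cd69 was lower in checkpoint than in naive-gene cells within each library, at 0.345-fold (0.301 to 0.397) in DOPAC and 0.259-fold (0.181 to 0.360) in Control. Naive-gene cells had 151 CPM (134 to 169) in DOPAC, against 262 CPM (248 to 276) in Control. Checkpoint cells had 52.1 CPM (48.2 to 56.2) in DOPAC, against 67.7 CPM (47.4 to 93.8) in Control, with overlapping intervals. Cells in neither subset had 99.9 CPM (91.4 to 109) in DOPAC, against 246 CPM (192 to 311) in 42 Control cells. Without naive-gene cells, 3153 DOPAC and 88 Control CD8 T cells remained and the log2 ratio of Cd69 was -0.99, against -1.71 in all CD8 T cells. The positive NK subset had 41.6 CPM (21.5 to 72.8) in DOPAC, against 179 CPM (140 to 226) in Control, whereas negative NK cells had 124 CPM (101 to 152) in DOPAC, against 138 CPM (126 to 150) in Control.

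Tgfb1 (chr7:25687002-25705077, plus strand), the ligand, was highest in NK cells at 434 CPM (395 to 476) in DOPAC, against 554 CPM (531 to 577) in Control, 0.783-fold (0.707 to 0.867). CD8 T cells had 221 CPM (214 to 227) in DOPAC, against 134 CPM (124 to 144) in Control, 1.65-fold (1.53 to 1.78). After thinning, 19.0% of the cells in DOPAC (17.7 to 20.4) had a Tgfb1 UMI, against 11.2% in Control (8.93 to 13.8); unthinned, 55.4% in DOPAC and 50.3% in Control did. Macrophages had 12.5% in DOPAC and 20.6% in Control. In naive-gene cells the ratio was within 1.5-fold, and in checkpoint cells the intervals overlapped. Checkpoint cells had 229 CPM (220 to 237) in DOPAC, against 209 CPM (172 to 252) in Control, and naive-gene cells 173 CPM (155 to 192) in DOPAC, against 125 CPM (115 to 135) in Control. Cells in neither subset had 219 CPM (206 to 232) in DOPAC, against 151 CPM (109 to 203) in 42 Control cells. Without naive-gene cells the log2 ratio was 0.25, within 1.5-fold. Type 1 dendritic cells had 109 CPM in DOPAC and 116 CPM in Control. Type 2 dendritic cells had 95.1 CPM (65.0 to 134) in DOPAC, against 219 CPM (204 to 235) in Control, and macrophages 138 CPM in DOPAC and 223 CPM in Control.

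Tgfbr1 (chr4:47353222-47414931, plus strand), the type I receptor kinase, was at its highest in plasmacytoid dendritic cells, at 784 CPM (661 to 924) in 44 DOPAC cells and 550 CPM (522 to 578) in 255 Control cells. These levels were apart from every other class. NK cells had 90.4 CPM (73.1 to 110) in DOPAC, against 72.7 CPM (64.7 to 81.4) in Control, and CD8 T cells 45.1 CPM (42.2 to 48.2) in DOPAC, against 52.1 CPM (46.4 to 58.3) in Control. Regulatory T cells had 107 CPM (71.5 to 153) in DOPAC, against 42.4 CPM (31.6 to 55.6) in Control, from 29 UMIs in DOPAC and 52 in Control. In type 1 dendritic cells Tgfbr1 was at 52.1 CPM (38.0 to 69.7) in DOPAC, against 31.0 CPM (25.9 to 37.0) in Control, 1.68-fold (1.17 to 2.38). At 1000 UMIs per cell 43.1% of DOPAC (27.9 to 59.2) and 34.6% of Control plasmacytoid cells (28.7 to 40.8) had a Tgfbr1 UMI (72.7% in DOPAC and 82.4% in Control unthinned), beside 11.6% of DOPAC and 11.0% of Control macrophages.

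Tgfbr2 (chr9:116084293-116175360, minus strand), the type II kinase that binds the ligand, had plasmacytoid dendritic, CD8 T and NK cells at the top, with values that overlapped between libraries. Plasmacytoid cells had 318 CPM (242 to 411) in DOPAC, against 499 CPM (473 to 527) in Control. CD8 T cells had 175 CPM (170 to 181; 3458 UMIs) in DOPAC, against 423 CPM (406 to 440; 2467 UMIs) in Control, 0.414-fold (0.394 to 0.437). NK cells had 184 CPM (159 to 211) in DOPAC, against 229 CPM (214 to 244) in Control. Mature dendritic cells were lowest, with 10.5 CPM in DOPAC and 22.5 CPM in Control, and type 1 dendritic cells had 50.9 CPM in DOPAC and 53.2 CPM in Control. Thinned shares of CD8 T cells were 16.5% in DOPAC (15.3 to 17.8), against 34.3% in Control (30.8 to 38.0), and unthinned ones 54.1% in DOPAC and 85.6% in Control. Control B cells had a thinned share of 34.9%, and macrophages 5.33% in DOPAC and 8.39% in Control.

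Tgfbr2 was apart between the libraries in naive-gene cells, whereas its intervals overlapped in checkpoint cells. Naive-gene cells had 192 CPM (173 to 212) in DOPAC, against 460 CPM (441 to 479) in Control, 0.417-fold (0.373 to 0.465). Checkpoint cells had 174 CPM (167 to 182) in DOPAC, against 160 CPM (128 to 198) in Control. Cells in neither subset had 172 CPM (161 to 184) in DOPAC, against 270 CPM (214 to 338) in Control. Without naive-gene cells the log2 ratio was -0.20, within 1.5-fold. Checkpoint cells stood at 0.909-fold (0.814 to 1.02) of naive-gene cells within DOPAC and at 0.348-fold (0.277 to 0.432) within Control.

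**Figure D3:**
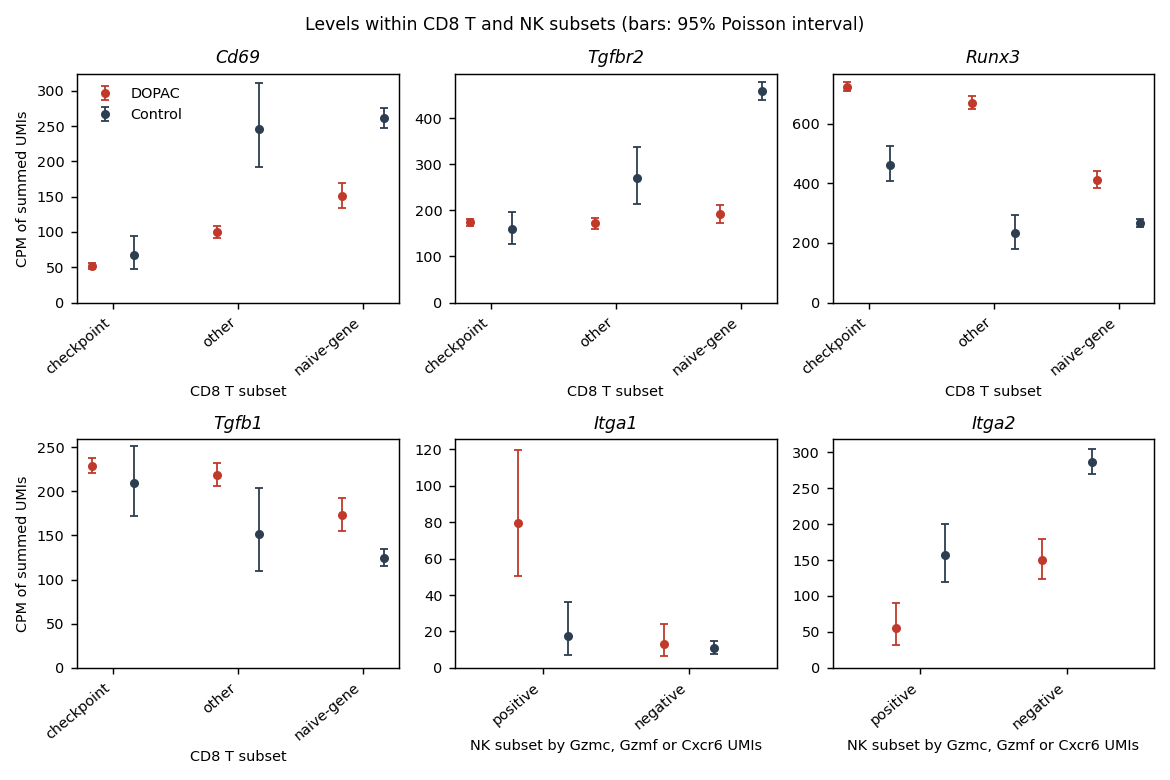
CPM with 95% Poisson intervals in 3 CD8 T subsets (Cd69, Tgfbr2, Runx3, Tgfb1) and in NK cells with and without UMIs of Gzmc, Gzmf or Cxcr6 (Itga1, Itga2), DOPAC in red and Control in dark blue. Runx3 is higher in DOPAC in all 3 CD8 T subsets, Tgfbr2 is apart in naive-gene and other cells but not in checkpoint cells, and Itga1 and Itga2 run opposite ways across the NK subsets in DOPAC, whereas the Itga1 intervals of the Control subsets overlap.

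Runx3 (chr4:135120652-135177990, plus strand) was highest in NK cells, at 680 CPM (631 to 732) in DOPAC, against 511 CPM (489 to 533) in Control. CD8 T cells were as high in DOPAC only, at 680 CPM (668 to 691, 13405 UMIs), against 283 CPM (270 to 297, 1650 UMIs) in Control. By the values of both libraries these 2 classes were not apart, but in Control their intervals did not meet. On the opposite strand Gm16224 overlaps Runx3 and Haspin overlaps Itgae, and whether the counting used strand is not given in the sources used here. The ratio was 2.40-fold (2.28 to 2.53) in CD8 T cells and 1.33-fold (1.22 to 1.45) in NK cells. Shares of CD8 T cells with a Runx3 UMI at 1000 UMIs stood at 46.4% in DOPAC (44.7 to 48.1), against 22.6% in Control (19.5 to 25.9), and unthinned at 85.5% in DOPAC and 74.1% in Control. Macrophages had 12.7% in DOPAC and 12.2% in Control, and Control B cells 4.05%. Plasmacytoid dendritic cells had 291 CPM (218 to 380) in DOPAC, against 340 CPM (318 to 363) in Control, which is above Control CD8 T cells. The remaining classes lay between 173 and 195 CPM in DOPAC and between 169 and 248 CPM in Control.

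Unlike Tgfbr2 and Tgfb1, Runx3 stayed past 1.5-fold when naive-gene cells were left out, at a log2 ratio of 0.89. Checkpoint cells had 725 CPM (710 to 740) in DOPAC, against 463 CPM (407 to 524) in Control. Naive-gene cells had 412 CPM (384 to 441) in DOPAC, against 267 CPM (253 to 282) in Control, 1.54-fold (1.41 to 1.69). Cells in neither subset had 671 CPM (649 to 694) in DOPAC, against 232 CPM (179 to 295) in Control. Within each library checkpoint cells were above naive-gene cells by nearly the same factor, 1.76-fold (1.64 to 1.89) in DOPAC and 1.74-fold (1.51 to 1.99) in Control. Its binding partner Cbfb had 124 CPM in DOPAC and 92.4 CPM in Control CD8 T cells. Zbtb7b, which directs the CD4 lineage, had 2.23 CPM in DOPAC and 4.12 CPM in Control there.

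Cd244a (ENSMUSG00000004709, chr1:171559193-171609746, plus strand), the 2B4 receptor of NK cells and of chronically stimulated CD8 T cells, had 21.9 CPM (19.8 to 24.0) in DOPAC, against 7.72 CPM (5.63 to 10.3) in Control CD8 T cells, 2.83-fold (2.08 to 3.94). Checkpoint cells had 22.8 CPM in DOPAC and 24.5 CPM (13 to 41.8) in Control, and naive-gene cells 15.3 CPM in DOPAC and 4.99 CPM in Control. The direction turned without naive-gene cells, at a log2 ratio of -0.18. NK cells had 62.8 CPM in DOPAC and 72.9 CPM in Control. Its ligand gene Cd48 had 111 CPM in DOPAC and 76.7 CPM in Control CD8 T cells.

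Genes around the members were followed by lists, whose counts stand against 17.6% higher and 23.4% lower of all tested genes in CD8 T, 13.6% higher and 19.7% lower in NK, and 18.9% higher and 14.0% lower in type 1 dendritic cells, with all-gene medians of -0.07, -0.07 and 0.07. Of 25 TGF-beta pathway genes outside the set, 21 had enough UMIs in CD8 T cells; 1 was higher in DOPAC and 15 were lower, with a median log2 ratio of -0.95. The lower ones included the signal carrier Smad3 (45.4 CPM in DOPAC and 149 CPM in Control) and the feedback inhibitors Smad7 (148 CPM in DOPAC and 371 CPM in Control), Pmepa1 (45.8 CPM in DOPAC and 131 CPM in Control) and Ldlrad4 (46.5 CPM in DOPAC and 228 CPM in Control). Eng, a co-receptor, had 0.558 CPM in DOPAC and 5.66 CPM in Control. The higher gene was Itgav, the alpha chain of integrins that free active TGF-beta, with 579 CPM in DOPAC and 170 CPM in Control. Itgb8, the beta chain on that list, had too few UMIs to be compared, at 0.761 CPM in DOPAC and 0.686 CPM in Control. Active TGF-beta was not measured. Within the CD8 T class the list median was -0.43 in naive-gene cells, -0.92 in checkpoint cells and -0.97 in cells of neither subset. Over all genes these subsets had medians of 0.01, -0.24 and -0.25. In NK cells 1 of 17 was higher (Itgav, 316 CPM in DOPAC and 153 CPM in Control) and 5 were lower, at a median of -0.35, among them Smad3 (155 CPM in DOPAC and 333 CPM in Control), Smad7 (177 CPM in DOPAC and 321 CPM in Control) and the ubiquitin ligase Smurf1 (17.1 CPM in DOPAC and 40.6 CPM in Control). In type 1 dendritic cells 1 of 19 was higher and 6 were lower, at a median of -0.30, with Thbs1, an activator of TGF-beta, at 19.7 CPM in DOPAC and 56.2 CPM in Control. Smad7 was lower in all 3 classes, and it had 184 CPM in DOPAC and 386 CPM in Control naive-gene cells, and 138 CPM in DOPAC and 265 CPM in Control checkpoint cells.

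Other integrins and their partners were lower more often than higher in CD8 T cells (8 lower and 3 higher of 16, median -0.40) and NK cells (6 lower and 0 higher of 13, median -0.43). Type 1 dendritic cells had 3 lower and 1 higher of 12, at a median of -0.05. All tested genes were also lower more often than higher in CD8 T and NK cells. Itga3, a laminin receptor chain, went the other way in CD8 T cells, with 13.5 CPM in DOPAC and 2.23 CPM in Control. Icam1, a ligand of leukocyte integrins, had 90.4 CPM in DOPAC and 289 CPM in Control NK cells. The fibronectin receptor chain Itga5 had 10.5 CPM in DOPAC and 25.4 CPM in Control there, and Itgad 1.90 CPM in DOPAC and 5.80 CPM in Control from 2 and 24 UMIs, with a ratio interval of 0.0376 to 1.32 that covers 1.

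Genes known from resident lymphocytes did not move as a block in CD8 T cells, where 7 of 19 were higher and 5 lower (median 0.37). The higher ones were Cxcr6 (181 CPM in DOPAC and 44.6 CPM in Control), Nr4a2, Rgs2, Prdm1, Chn2, Litaf and Dusp6. The lower ones were the aryl hydrocarbon receptor Ahr (11.4 CPM in DOPAC and 50.4 CPM in Control), P2rx7, Inpp4b, Cdh1 and the migration receptor Gpr183 (64.1 CPM in DOPAC and 248 CPM in Control). The CD8 T subsets differed. Naive-gene cells had 11 higher and 4 lower of 18 (median 0.72), beside 18.6% higher and 16.6% lower of all genes there. Checkpoint cells, with 46 in Control, had 1 higher and 5 lower of 17 (median -0.15, all genes -0.24). Cells in neither subset, with 42 in Control, had 3 higher and 6 lower of 17 (median -0.42, all genes -0.25). NK cells had 1 higher (Cxcr6, 6.66 CPM in DOPAC and 3.62 CPM in Control from 7 and 15 UMIs, with a ratio interval of 0.634 to 4.79 that covers 1; the gene also helped to define the positive subset) and 4 lower of 16, at a median of -0.16. The early response gene Nr4a1 had 128 CPM in DOPAC and 289 CPM in Control NK cells, and the repressor Prdm1 15.2 CPM in DOPAC and 33.8 CPM in Control. In type 1 dendritic cells 3 of 15 were higher and 1 was lower, with Prdm1 at 17.4 CPM in DOPAC and 7.39 CPM in Control; the share of higher genes there, and of lower ones in CD8 T cells, is near that of all genes.

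Genes of egress and circulation had the lowest median, -2.76 in CD8 T cells, with 9 of 13 lower and 1 higher (Cx3cr1). Klf2, which drives S1pr1, had 15.9 CPM in DOPAC and 372 CPM in Control, and the naive-cell factors Tcf7 and Lef1 had 15.6 and 51.1 CPM in DOPAC, against 242 and 759 CPM in Control. Some of these genes also defined the naive-gene subset. By subset the list median was -0.99 in naive-gene cells, -1.33 in checkpoint cells and -1.26 in cells of neither subset. Over all genes these subsets had medians of 0.01, -0.24 and -0.25. In NK cells 8 of 14 were lower and 1 higher, at a median of -0.65. Klf2 had 86.6 CPM in DOPAC and 380 CPM in Control NK cells, and S1pr5, an egress receptor of NK cells, 0 UMIs in DOPAC and 5.07 CPM from 21 UMIs in Control. The maturation receptor Klrg1 was higher, with 78.0 CPM in DOPAC and 21.0 CPM in Control. Of the 7 partners of Cd244a and Runx3, 1 was higher and 2 were lower in CD8 T cells, 2 were lower in NK cells, and in type 1 dendritic cells 1 of 5 tested was higher and 1 lower (Zbtb7b, 2.31 CPM in DOPAC and 5.42 CPM in Control from 2 and 22 UMIs, with a ratio interval of 0.0487 to 1.74 that covers 1). Runx1, a relative of Runx3, had 297 CPM in DOPAC and 524 CPM in Control CD8 T cells and 1458 CPM in DOPAC and 2558 CPM in Control NK cells.

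**Figure D4:**
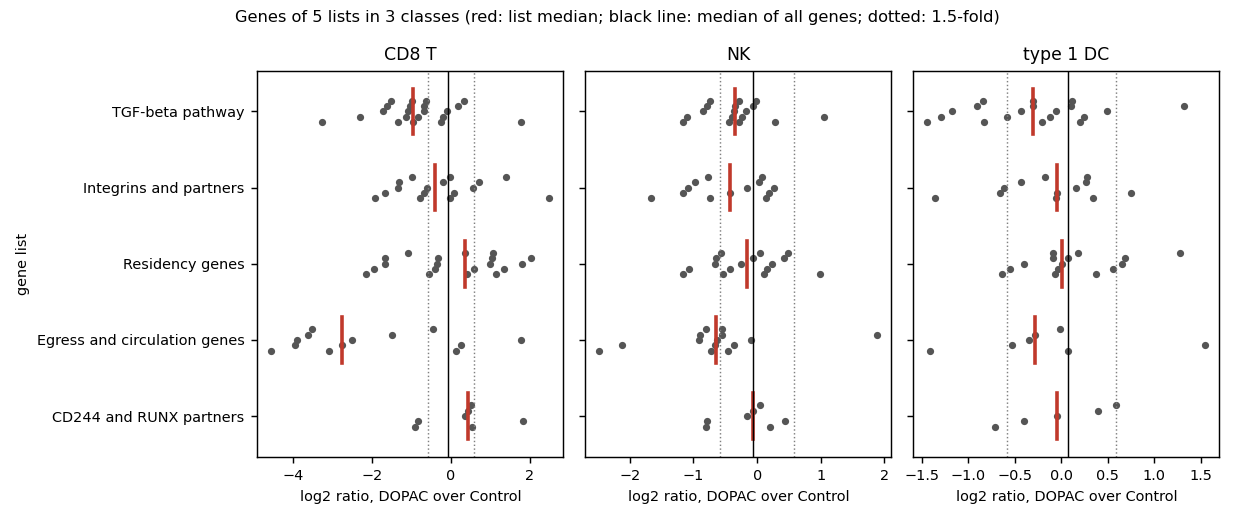
Log2 ratios, DOPAC over Control, of the genes of 5 lists with at least 20 UMIs in CD8 T, NK and type 1 dendritic (DC) cells. Points are genes, red bars list medians, black lines the median of all tested genes and dotted lines 1.5-fold; the TGF-beta and egress lists lie mostly left of the black line in CD8 T and NK cells, and the horizontal scale differs between panels.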

How the data were processed

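The authors deposited 1 table of unnormalized UMI counts for each group. Per the file headers these came from Cell Ranger 7.0.1, and per the submitters' processing notes the build was GRCm38. Gene positions come from the reference annotation of that build. Totals were 47769958 UMIs over 10777 DOPAC barcodes and 100938364 over 9629 Control barcodes. Cells had at least 500 UMIs, 200 genes and at most 10% mitochondrial UMIs. Scrublet (scanpy 1.11.5, Python 3.11.15) marked 4.02% of Control cells as doublets; in DOPAC it marked 0.0%, so the 815 highest scores (8.07%) were removed. Gates used UMIs of marker genes. Cells in 2 gates were left out (13 DOPAC and 123 Control cells), and 4719 DOPAC and 3777 Control cells met no gate. UMIs were summed per class and library and scaled to CPM with exact Poisson intervals; ratio intervals are conditional exact ones. Log2 ratios added 1 count to each sum, and a gene needed 20 UMIs over both sums. Shares were thinned to 1000 UMIs per cell, as the mean over all possible draws, with Clopper-Pearson intervals, and shallower cells were left out (at most 35 of a main class, in DOPAC CD8 T cells). Neighbouring classes are called apart where the values of both libraries do not overlap. Members and lists were chosen with earlier results of these data known. Named list genes are the 3 largest ratios past 1.5-fold per list in CD8 T and NK cells and the largest in the other classes, plus Itgb7, Cdh1, Cd48, Cbfb and Smad7; further genes of the lists were named after their values were seen. The summing and calling steps were tested on simulated data. Alternatives were kept doublets, a 5% mitochondrial limit, stricter gates, gates on thinned cells, no cycling cells, no naive-gene cells, median-ratio scaling, equal weight per cell, no count filter and, added after seeing the data, a wider NK gate. A gene of the naive-cell set is not reported here.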

Additional observations from a re-analysis of the deposited data

Results flagged for a closer look

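Cd69 had opposite directions in 2 classes under the same comparison. Its log2 ratio of DOPAC over Control was 0.82 in type 1 dendritic cells (49.8 CPM in DOPAC and 28.6 CPM in Control) and -1.71 in CD8 T cells (74.3 CPM in DOPAC and 243 CPM in Control). The difference between the classes was not tested. Each direction rests on 1 library per group.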

How the results depend on the processing

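No paired analysis was possible because each group has 1 library. Of the counts of members at least 1.5-fold apart, those of CD8 T cells (5, and 5 to 7 under the alternatives) and type 1 dendritic cells (3, and 3 to 4, the 4 with no count filter and also without any UMI of an excluded marker, in 47 DOPAC and 30 Control cells, where Tgfbr2 at -0.63 and Cd244a at 0.85 were past 1.5-fold) stayed within 1.5 times of the main count. The NK count of 2 became 4 when no UMI of an excluded marker was allowed (198 DOPAC and 281 Control cells), with Cd69 (-0.70) and Runx3 (0.59) past 1.5-fold, and 1 under the wider NK gate, which lost Itga1; the cause was not tested. Gating on thinned cells left too few type 1 dendritic cells for a value, and in NK cells (74 DOPAC and 118 Control cells) it brought Itga1 to a log2 ratio of 0.20 and Itga2 to -0.35, and took Tgfbr2 (-0.71) and Runx3 (0.77) past 1.5-fold, as it did Itga2 (-0.82) and Itgb1 (-0.60) in CD8 T cells; 38 of 80 CPM levels moved by more than their interval. Without cycling cells Itga1 in CD8 T cells (0.73) and Cd244a in type 1 dendritic cells (0.61; 84 DOPAC and 148 Control cells) went past 1.5-fold. Leaving out naive-gene CD8 T cells (3153 DOPAC and 88 Control cells left) turned Cd244a to -0.18 and Itga1, which had been within 1.5-fold, to -0.86, and took Tgfb1 and Tgfbr2 inside 1.5-fold, while Itgb1 went past it at -0.91. Kept doublets, the 5% mitochondrial limit, a gate minimum raised by 1 UMI (78 DOPAC and 178 Control type 1 dendritic cells), median-ratio scaling, equal weight per cell and no count filter changed no direction or call of the 28 gene and class pairs tested. Of the 140 thinned shares, 59 moved by more than their interval at 500 UMIs, 69 at 2000 UMIs and 116 without thinning. Depth limits Itgae in CD8 T and NK cells and the classes with under 100 DOPAC cells.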

Other observations

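In regulatory T and the smaller dendritic classes the lists gave these values, with few UMIs in DOPAC. Regulatory T cells had Nrros, which holds latent TGF-beta, at 14.7 CPM (4.01 to 37.7) in 71 DOPAC cells and 174 CPM (152 to 199) in 95 Control cells, and Ahr at 11.1 CPM (2.28 to 32.3) in DOPAC, against 93.7 CPM (77.4 to 112) in Control. Itgam had 0 UMIs in DOPAC and 61.1 CPM in Control there, Klf3 3.68 CPM in DOPAC and 53.8 CPM in Control, and Sh2d1a, an adaptor of the 2B4 receptor, 58.9 CPM (33.7 to 95.7) in DOPAC, against 32.6 CPM (23.3 to 44.4) in Control. Type 2 dendritic cells had Thbs1 at 5.94 CPM (0.720 to 21.5) in 63 DOPAC cells and 126 CPM (114 to 138) in 237 Control cells, Ccr7 at 47.5 CPM in DOPAC and 116 CPM in Control, Cdh1 at 14.9 CPM in DOPAC and 38.1 CPM in Control, Itgal at 53.5 CPM in DOPAC and 25 CPM in Control and Runx1 at 927 CPM in DOPAC and 1580 CPM in Control. Mature dendritic cells had Itgb7 at 6.30 CPM (1.30 to 18.4) in 97 DOPAC cells and 44.0 CPM (37.4 to 51.4) in 250 Control cells, Crtam at 60.9 CPM (40.8 to 87.5) in DOPAC, against 20.9 CPM (16.4 to 26.2) in Control, Eng at 4.20 CPM in DOPAC and 15.9 CPM in Control, Tbx21 at 16.8 CPM in DOPAC and 9.46 CPM in Control and Runx1 at 174 CPM in DOPAC and 427 CPM in Control. Plasmacytoid cells had Nr4a2 at 110 CPM (67.0 to 169) in 44 DOPAC cells and 24.5 CPM (18.9 to 31.2) in 255 Control cells, Itgav at 87.8 CPM in DOPAC and 25.3 CPM in Control, Cx3cr1 at 27.4 CPM in DOPAC and 6.41 CPM in Control, and Itgam at 21.9 CPM in DOPAC and 9.42 CPM in Control.

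Across the 14 points of 7 classes and 2 libraries, the genes whose levels ran most like a member's were named among 9911 candidates by Pearson's r of log2(CPM + 1). The points share libraries and differ in depth, so r is a description. Itgae was most like Gcsam (0.886) and P3h2 (0.870), Itga1 like Cyb5r1 (0.867) and Agtpbp1 (0.848), and Itga2 like Nudt4 (0.941) and Nrarp (0.940). Itgb1 was most like Nrbp1 (0.843) and Mirt1 (0.841), and Cd69 like Ccpg1 (0.943) and Bzw2 (0.941). Tgfb1 was most like Rab3gap2 (0.915) and Sike1 (0.894), Tgfbr1 like Apc (0.968) and Gm43328 (0.949), Tgfbr2 like Pik3cd (0.958) and Ankrd10 (0.954), and Runx3 like Ugcg (0.855) and Gatad2a (0.846). Cd244a was most like Lat2 (0.895) and Rnf130 (0.849).

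Of the CD8 T cells, 25 of 3486 in DOPAC and 48 of 686 in Control had an Itgae UMI. Of these, 0 in DOPAC and 5 in Control also had an Itga1 UMI, beside 2.55 cells in DOPAC and 4.83 in Control from the product of the shares, and 12 in DOPAC and 29 in Control also had a Cd69 UMI, beside 6.46 cells in DOPAC and 32.8 in Control. In type 1 dendritic cells 8 of 108 DOPAC and 71 of 209 Control cells had UMIs of both Itgae and Itga1, beside products of 9.25 cells in DOPAC and 70.3 in Control.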
